A study of Bos taurus with 15 samples.

Results

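The transcripts of bovine (Bos taurus) morulae were compared with those of embryos at the 2-, 4- and 8-cell stages, pooled as early cleavage embryos. The comparison used 6 of the 15 Affymetrix Bovine Genome arrays of the series: 3 morula arrays, whose labels call them biological replicates, and 1 array for each of the 3 cleavage stages. The arrays were chosen by the stage named in their labels and by no measured value. All embryos of both groups were made in the same way and received no treatment. Oocytes were aspirated from ovarian follicles with their cumulus cells, matured and fertilised in vitro, stripped of cumulus by vortexing and cultured in SOF medium (synthetic oviduct fluid). Total RNA was amplified in 3 rounds and labelled with biotin. The labels give neither the number of embryos in a sample nor their hours after fertilisation. The cleavage arrays are different stages rather than replicates of a single stage, so their spread holds both differences between stages and error. The p-values measure only the spread between arrays within groups, estimated in a fit to all 15 arrays of the series.

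A mammalian embryo begins development on messenger RNA stored in the oocyte. It destroys much of that store while it divides, and then takes over with transcripts of its own genome, a passage known as the maternal-to-embryonic transition. In cattle the main wave of embryonic transcription begins around the 8-cell stage, so it falls partly inside the pooled cleavage stages and partly between them and the morula. The morula is the stage at which the cells compact, form junctions with each other and start to set apart the trophectoderm, the outer epithelium that later pumps fluid into the blastocyst and builds the placenta. 

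Mean signal per array, an intensity on a linear scale, lay between 558 and 712 on the 6 arrays, and median signal between 42.1 and 60.7. Each signal is the share of a transcript in the amplified RNA, so a change per cell and a change in the total RNA of the embryo cannot be told apart. Morulae 1 and 2 were close to each other, at least 4-fold apart at only 47 of 24016 probe sets (Pearson's r of log2 signals 0.984). Morula 3 differed from them by that much at 2609 and 2347 probe sets (r 0.8705 and 0.8787). A probe set is a group of probes that together measure a transcript. The 3 cleavage arrays differed from each other by that much at 2356 to 3320 probe sets, and cleavage arrays differed from morula arrays at 5201 to 5693. Added control RNA (the lys spike-in) gave signals of 6099 to 8131 on the 3 cleavage arrays and 6620 on morula 3, but 58.4 and 79.9 on morulae 1 and 2. For GAPDH, the ratio of middle to 3' signal, a sign of RNA length, was 0.237, 0.0935 and 0.0571 on the cleavage arrays and 0.625, 0.367 and 0.100 on morulae 1 to 3. Other control genes did not follow GAPDH. The ratio was 0.157, 0.272 and 0.233 against 0.0636, 0.0842 and 0.887 for eIF-4E. It was 0.00588, 0.0299 and 0.0475 against 0.0176, 0.0302 and 0.0101 for actin, and 0.562, 0.0229 and 0.0115 against 0.273, 0.322 and 0.178 for cyclophilin. The part of these control signals in the results was not tested. Counts from fits that took spike-in class into account are given in the closing section. Values of each morula array are given below where the groups of genes are described.

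Of 24016 probe sets, 2806 (11.7%) were higher and 1778 (7.4%) were lower in morulae at an adjusted p under 0.05 (limma with Benjamini-Hochberg adjustment over all probe sets). The 6 arrays did not overlap at 2737 of the 2806 and at 1745 of the 1778. Without regard to the test, morula signals lay above every cleavage signal at 19.3% of probe sets and below every one at 15.2%. A change of at least 4-fold was reached by 2156 of the higher probe sets (8.98% of all) and by 1230 of the lower (5.12%). Counted at 1 probe set per gene, that with the highest mean signal over all 15 arrays, 1442 of 9155 named genes (15.8%) were higher and 777 (8.49%) lower, 24.2% in all. At least 4-fold changes made up 12.8% and 6.07% of the named genes. Gene values below are from that probe set, and other probe sets of a gene are given beside it where their call or direction differs. The excess of rises over falls depended on the scaling. Rises made up 61.2% of the called probe sets on the deposited scale, 51.5% after quantile normalization and 47.9% after each array was centred on its median, while the median difference of all probe sets moved from 0.0089 to -0.11 and -0.26 on the log2 scale. In neither scaling was a probe set called in the opposite direction.

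**Figure D1:**
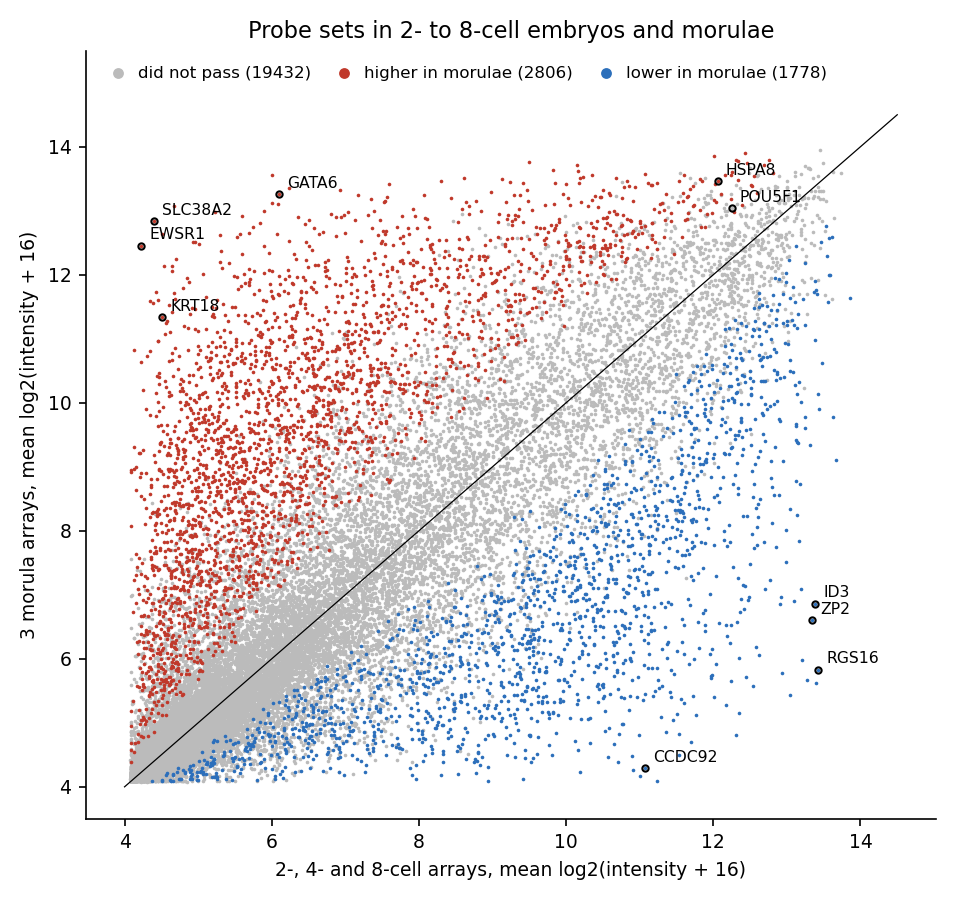
Each point is a probe set, with its mean log2(intensity + 16) over the 2-, 4- and 8-cell arrays on the horizontal axis and over the 3 morula arrays on the vertical axis. The 2806 probe sets higher in morulae (red) include many near the left edge, where cleavage signals were low, and the 1778 lower ones (blue) reach down to CCDC92 at the bottom; grey points did not pass, and the line marks equal signal.

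Among named genes the largest rises took transcripts from near the bottom of the signal scale to near its top. Differences are given as log2 of (intensity + 16), morula minus cleavage, with the standard error (SE) of the fit. SLC38A2, an amino acid transporter of the cell membrane, had signals of 3.79, 4.99 and 6.55 on the 2-, 4- and 8-cell arrays and 7963, 6977 and 6944 on morulae 1 to 3. It rose by 8.44 (SE 0.74, adjusted p = 1.42e-05), and another of its probe sets gave 1.62 and did not pass. Every morula signal of this gene lay far above every cleavage signal. EWSR1, an RNA-binding protein, went from 1.73, 1.32 and 5.08 to 6582, 5998 and 4457, a rise of 8.24 (SE 0.83, adjusted p = 3.78e-05).

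Other leading rises were in genes of varied function. SSR4, a subunit of the complex that accompanies the protein channel of the endoplasmic reticulum, had cleavage signals of 46.1, 43.7 and 55.5 and morula signals of 9509, 9694 and 7519.7, and rose by 7.11 with the small SE of 0.33. FN1, the matrix protein fibronectin, rose by 7.32, from 179, 13.5 and 3.84 to 8475, 7524 and 7198, although another FN1 probe set gave 0.09. CD99, a surface glycoprotein, rose by 7.24 and by 5.10 at another probe set. Others among the largest rises were NHLRC3 (7.41), TBC1D4, which governs the traffic of glucose transporters (7.33), GATA6 (7.17), RPL22 (7.12), GALNT1, which starts the sugar chains of mucin-type glycoproteins (7.11), and SLC25A3, the phosphate carrier of mitochondria (7.10). Their adjusted p ran from 2.65e-06 (TBC1D4) to 0.000217 (SLC25A3). Another probe set of TBC1D4 gave 0.19 and did not pass, and that of GALNT1 rose by 2.65.

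The largest falls were somewhat smaller on the log2 scale than the largest rises. RGS16, which shortens G-protein signals, read 11000.5, 13386 and 9069 on the 2-, 4- and 8-cell arrays and 31.8, 46.4 and 45.8 on the morulae. It fell by 7.60 on the log2 scale (SE 0.31, adjusted p = 3.2e-07), and its other probe sets fell by 5.93 and 4.12. TECTB, known as an extracellular matrix protein of the inner ear, went from 4535, 4643 and 6207 to 14.3, 16.7 and 6.42, a difference of -7.50 (SE 0.39, adjusted p = 8.32e-07). All 3 cleavage signals of these genes were high, and no morula array kept more than a trace of them. PLEKHG1 gave -7.61 and ARMC2 -7.60, with another ARMC2 probe set at -0.68 that did not pass. RRAGD, a GTPase that couples amino acids to mTOR, gave -7.20, ZNF362 -7.04, C15H11orf16 -6.97 and SYTL2, which tethers vesicles, -6.71. GJC1, a gap junction connexin, went from 4933, 4110.2 and 4772 to 32.8, 27.4 and 11.9, a difference of -6.89 (SE 0.46, adjusted p = 2.65e-06).

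**Figure D2:**
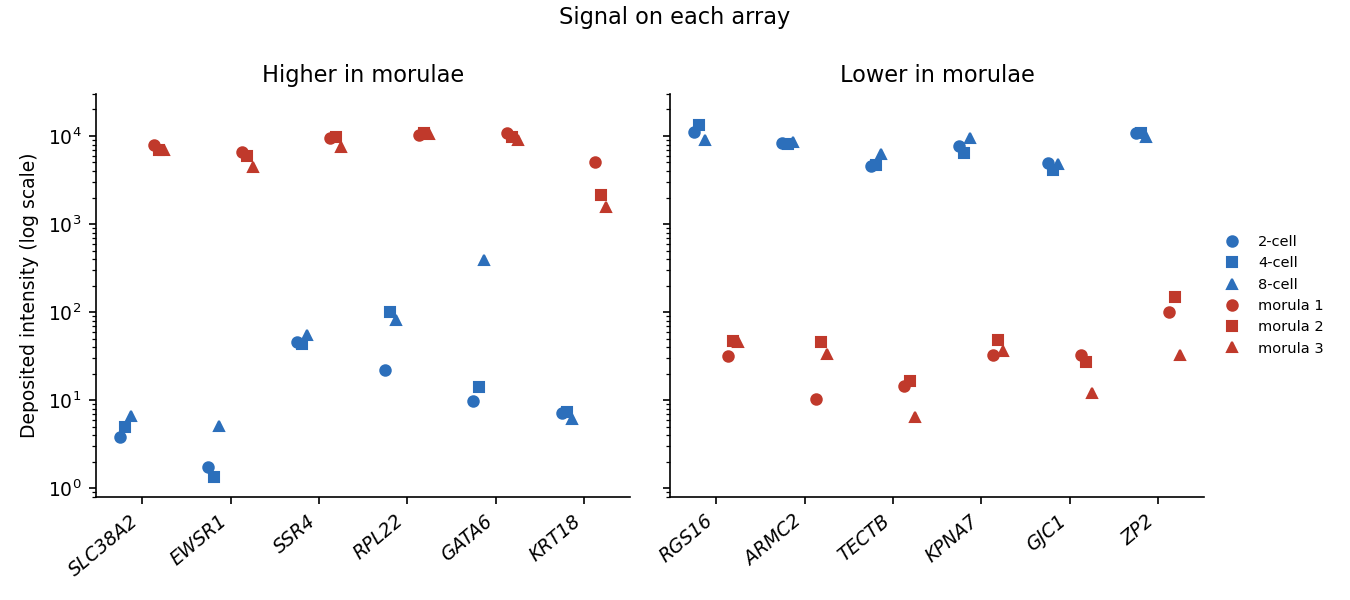
Deposited intensity (log axis) of 12 genes on each of the 6 arrays, blue for the 2-, 4- and 8-cell arrays and red for morulae 1 to 3. Every red point lies above every blue one in the left panel and below it in the right panel; GATA6 is the gene whose 8-cell signal (394) stands apart from its 2- and 4-cell signals (9.85 and 14).

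Genes of the egg coat and of oocyte growth were lower in morulae in 6 of the 7 measured members, with a median difference of -4.84 against 0.10 over all genes. The zona pellucida is the glycoprotein shell that oocytes build during growth and that still surrounds the embryo. ZP2, the zona protein to which sperm bind, read 10801, 10794 and 9661 in cleavage and 99.7, 146 and 32.8 in morulae, and fell by 6.75 (SE 0.46, adjusted p = 2.88e-06). ZP4 went from 8448, 8276 and 7709 to 166, 259 and 106, a difference of -5.48 (SE 0.36, adjusted p = 2.55e-06). ZP3 gave a smaller difference, -2.87 (adjusted p = 0.0107), from 1584, 3255 and 2042 to 283, 329.9 and 252. The secreted oocyte factors GDF9 and BMP15, which act on the cumulus cells around the egg, differed by -4.87 and -4.84, and another BMP15 probe set gave -1.71 without passing. KIT, the receptor for stem cell factor, gave -1.14 (adjusted p = 0.033), with other probe sets at -2.28, -1.07 and -0.33 that did not pass, but lost its call without morula 2 (0.118), without the 2-cell array (0.0587), without the 4-cell array (0.0932) or without the 8-cell array (0.0638).

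Of the stored maternal factors that carry the embryo through its early divisions, 4 were measured and 3 were lower in morulae. KPNA7, the oocyte's own importin alpha, which brings proteins into the nucleus, read 7766, 6393 and 9519 in cleavage and 32.9, 48.0 and 36.1 in morulae, and fell by 7.16 (SE 0.39, adjusted p = 8.32e-07). Its somatic relative KPNA2 read 5457, 6633 and 5113 against 5549, 3326 and 3465, with overlapping groups and a difference of -0.51 (adjusted p = 0.308). NLRP5, part of the complex under the egg membrane, went from 8281, 8012 and 5356 to 248, 326 and 223, a difference of -4.67 (adjusted p = 0.000105). OOEP, another part of that complex, separated the morulae from each other. It read 4229, 4754 and 3431 in cleavage, 245 and 219.7 on morulae 1 and 2, and 3251 on morula 3. Its difference of -2.81 (adjusted p = 0.0302) lost its call when any of these arrays other than morula 3 was left out, with adjusted p between 0.0509 (without the 8-cell array) and 0.128 (without morula 2).

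Of 29 regulators of meiotic maturation and the cell cycle, 4 were higher and 3 lower (13.8% and 10.3%, near the 15.8% and 8.49% of all genes), with a median of -0.11. MOS, the kinase that holds the egg in meiotic arrest, read 6489, 6811 and 5179 in cleavage and 23.8, 41.4 and 151 in morulae, a difference of -6.40 (SE 0.60, adjusted p = 2.24e-05). The mitotic kinase AURKA gave -1.52 and CKS1B, a subunit of cyclin-dependent kinases, -1.59. CCND2, a D-type cyclin, went from 29.3, 28.8 and 54.7 to 4024, 3991 and 308, a rise of 5.05 (SE 0.82, adjusted p = 0.00103) in which morula 3 was much the lowest of the morulae. CCND3, another D-type cyclin, rose by 4.16, and their partner kinase CDK4 by 3.26.

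Of 29 genes that bind, shorten and destroy messenger RNA, 4 were higher and 4 lower (13.8% each, against 15.8% and 8.49% of all genes), with a median of -0.19. IGF2BP3, which protects bound messages, read 5319, 8136 and 6760.0 in cleavage and 966, 1088 and 939 in morulae, and fell by 2.72 (SE 0.35, adjusted p = 0.000217). Its relative IGF2BP1 went the other way, from 90.3, 54.7 and 1182 to 4387, 4577 and 3880.0, a rise of 4.37 (SE 0.84, adjusted p = 0.00321) with the 8-cell array between its neighbours and the morulae. CNOT6L, a deadenylase that removes poly(A) tails from maternal messages, gave -3.26 (adjusted p = 0.00647) and -4.69 at another probe set. ZFP36L1, which leads messages with AU-rich ends to decay, gave -2.10 (other probe sets -3.75, which passed, and -0.86, which did not), and YBX3, an RNA-packaging protein, -2.23. The 4 rises of this list were less firm as a count: 1 remained past the test without morula 1, without morula 2 or without the 2-cell array, and 2 without the 4-cell array.

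The transcription machinery showed no shared direction. Of 52 measured RNA polymerase subunits and general factors, 8 were higher and 5 lower (15.4% and 9.62%, near the shares of all genes), with a median of 0.24. POLR1C, shared by polymerases I and III, rose by 5.74, from 116, 9.01 and 471 to 7106, 6507 and 5238, and POLR3F, of polymerase III, rose by 5.73, from 1.41, 1.00 and 17.4 to 926, 1075 and 1419. POLR2L, shared by all 3 polymerases, rose by 4.24 and POLR3B, of polymerase III, by 4.23. The other probe sets of POLR3F gave -0.37 and 0.00 and did not pass. The falls included TBPL1, a relative of the TATA-binding protein, at -2.39, and MNAT1, a subunit of the kinase that starts polymerase II, at -2.45. Of the 5 falls, 2 passed without morula 2, 2 without the 2-cell array and 1 without the 4-cell array. MNAT1 missed the threshold without the 4-cell array (adjusted p = 0.0503).

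Sequence-specific transcription factors linked to genome activation were 6 higher and 6 lower of 38, with a median of -0.37. Each count was 15.8% of the list, against 15.8% of all genes higher and 8.49% lower. ID3, which blocks other helix-loop-helix factors, read 10484, 11574 and 9903 in cleavage and 104, 148 and 64.3 in morulae, a difference of -6.51 (SE 0.47, adjusted p = 4.14e-06). ELF1, an ETS-domain factor, gave -4.75 and NFYC, a subunit of the CCAAT-binding factor, -2.65. The rises were led by KLF13, a zinc finger factor, which went from 86.2, 28.2 and 47.3 to 1914, 2492 and 3257 and rose by 5.25 (SE 0.67, adjusted p = 0.000199). FOS, an immediate-early factor, rose by 5.04, although another FOS probe set gave -0.18, the retinoid receptor RXRB by 4.73 and the heat shock factor HSF2 by 4.04. The falls numbered 3 when morula 2 was left out. NFYA, the DNA-binding partner of NFYC, read 7.26, 9.81 and 252 in cleavage and 534, 522 and 45.5 in morulae; these overlapped, and its difference of 2.27 did not pass (adjusted p = 0.161), although it did without morula 3 (0.0395) or without the 8-cell array (0.0263).

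Both genes of the pair that copies DNA methylation fell. UHRF1, which guides the maintenance methyltransferase to newly copied DNA, read 10879.8, 7575 and 9515 in cleavage and 671, 508 and 199 in morulae, and fell by 4.44 (SE 0.70, adjusted p = 0.000888), with another probe set at -6.10. DNMT1, that methyltransferase, went from 476, 331 and 144 to 66.9, 68.7 and 25.4, a difference of -2.19 (adjusted p = 0.0138) that did not pass without the 2-cell array (0.0524). The enzymes that place methylation anew did not pass: DNMT3A gave 2.69 (adjusted p = 0.117), with cleavage signals as far apart as 1533 and 14.8, and DNMT3B gave -2.68 (0.0685). Without the 2-cell array both passed, at 0.0192 and 0.0204, as they did with a mean per stage (0.00821 and 0.0408) or array weights (0.0166 and 0.00741). DNMT3B also passed after quantile normalization (0.038), after median centring (0.0452) and without the lowest probe sets (0.0497). In all, 7 of 36 DNA and chromatin modifiers were higher and 2 lower (19.4% and 5.56%, against 15.8% and 8.49% of all genes), with a median of 0.53. After quantile normalization 6 were higher and 5 lower, and after median centring 7 and 5. CBX3, a heterochromatin protein, rose by 4.92, the acetyltransferase KAT2B by 3.45 and the deacetylase SIRT1 by 2.96. The other probe sets of KAT2B (-0.12 to 0.68) and SIRT1 (-0.40) did not pass.

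Histones and their chaperones were 6 higher and 2 lower of 23 (26.1% and 8.7%, against 15.8% and 8.49% of all genes), with a median of 0.59. The 2 large subunits of the chaperone that loads histones onto replicated DNA moved in opposite directions. CHAF1A read 7591, 8073 and 6659.6 in cleavage and 828, 952 and 1378 in morulae, a fall of 2.83 (SE 0.41, adjusted p = 0.000465), while CHAF1B went from 256, 149 and 77.1 to 651, 1239 and 3903, a rise of 3.21 (SE 0.68, adjusted p = 0.00569). ASF1B, another histone chaperone, fell by 1.60, with another probe set at -0.75 that did not pass. The variant histone H2AZ1, which marks active promoters, had signals of 42.8 and 43.4 on the 2- and 4-cell arrays, 1830.0 on the 8-cell array and 8013, 5579 and 2815 on the morulae. It rose by 4.76 (SE 1.11, adjusted p = 0.00991).

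Of 63 measured cytoplasmic ribosomal protein genes, 49 were higher in morulae and none lower, and the median difference was 2.38 against 0.10 over all genes. The 3 morulae gave medians of 2.60, 2.52 and 2.27 when each was set alone against the cleavage mean. Morula signals lay above every cleavage signal for 58 of the 63, against 24.4% of all named genes. RPL22 read 21.9, 99.7 and 82.0 in cleavage and 10235, 10869 and 10407 in morulae, a rise of 7.12 (SE 0.54, adjusted p = 5.37e-06). RPL18 rose by 5.18, from 366, 195 and 224 to 10588, 10115 and 8480.3, and RPS26 by 5.65. RPL3 rose by 6.31, although another RPL3 probe set gave -0.08. At the other end, RPS3 read 8415, 5201 and 8406 in cleavage and 12480.5, 13203 and 11515 in morulae. Its difference of 0.79 (adjusted p = 0.0384) was lost when any single morula was left out (0.0505 to 0.119) or without the 4-cell array (0.142), and its other probe sets rose, by 2.43 and 5.79.

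The remaining 14 ribosomal protein genes did not pass. RPL21 gave -2.16 and RPL37 -1.99, with overlapping groups and adjusted p of 0.158 and 0.205, and another RPL21 probe set rose by 1.74. RPL21 read 3462, 4923 and 8465 in cleavage, 679 and 568 on morulae 1 and 2, and 4052 on morula 3. Leaving out any of the 6 arrays left between 42 and 48 ribosomal protein genes higher past the test, and without the 4-cell array RPL37 passed as lower (adjusted p = 0.0184). With morula 3 as the only morula, set against the 3 cleavage arrays among arrays that all carried spike-in signal, 7 passed.

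**Figure D3:**
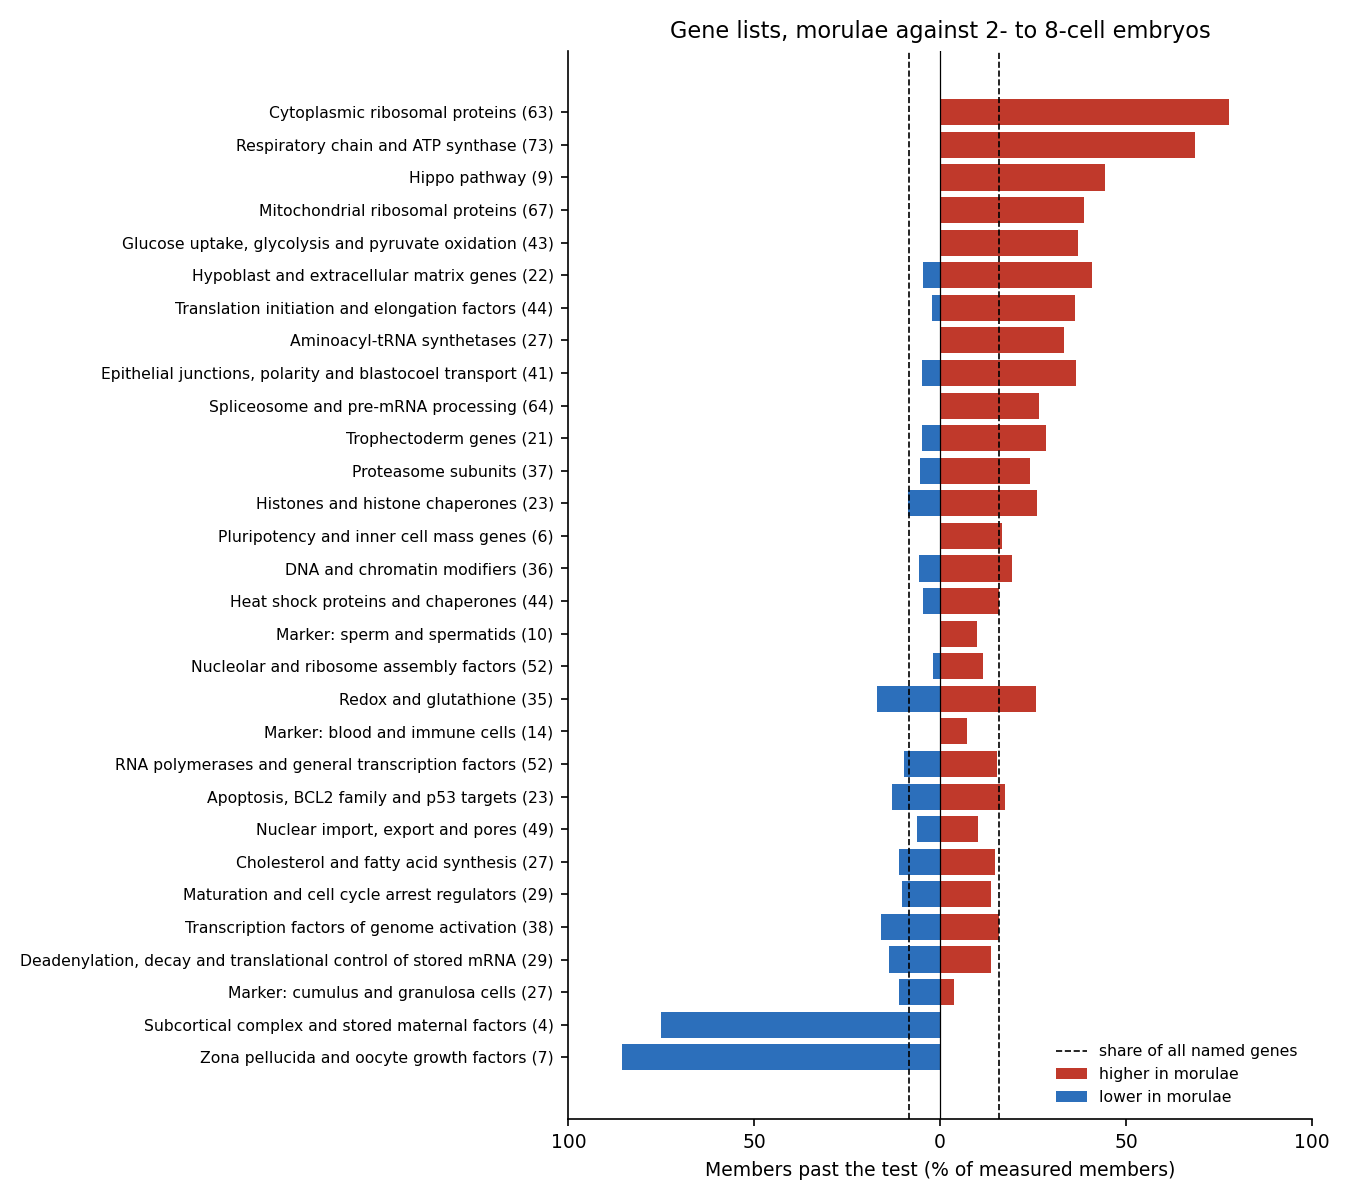
Share of the measured members of 30 gene lists that were higher (red, to the right) or lower (blue, to the left) in morulae at an adjusted p under 0.05, with the number measured in brackets; dashed lines mark the shares of all named genes, 15.8% and 8.49%. The lists are ordered by the share of higher minus the share of lower members. Ribosomal proteins (77.8%) and the respiratory chain (68.5%) reach furthest to the right, and the zona and stored maternal lists (85.7% and 75%) furthest to the left.

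Further parts of the translation machinery rose in smaller shares. Of 44 initiation and elongation factors, 16 were higher and 1 lower (36.4% and 2.27%, against 15.8% and 8.49% of all genes). Their median was 1.32, and 1.03 for morula 3 alone. Among them were subunits of EIF3, the scaffold that brings messages to the small ribosomal subunit: EIF3D went from 10.1, 30.3 and 2.99 to 1094, 985 and 1249 (5.30, SE 0.50, adjusted p = 2.33e-05) and EIF3G rose by 5.32. EIF1AX, which helps to find the start codon, rose by 1.95, from 1232, 2442 and 2189.6 to 7479, 7549 and 6835. EIF1B, a start-codon factor of another family, fell by 1.97, from 4429, 4872 and 5169 to 1393, 1122 and 1144. Of the 16 rises, a count of 8 was reached without morula 1, 8 without morula 2 and 10 without the 2-cell array.

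Of 27 aminoacyl-tRNA synthetases and their partners, which load transfer RNAs with amino acids, 9 were higher and none lower. The rises were 33.3% of the list, against 15.8% of all genes, and the median was 1.60 (0.8 for morula 3 alone). AARS1, the alanine enzyme, read 16.0, 68.2 and 24.0 in cleavage and 5805, 6742 and 6599.5 in morulae and rose by 7.07 (SE 0.46, adjusted p = 2.55e-06). QARS1, for glutamine, rose by 4.34 and SARS1, for serine, by 3.37. The count fell to 3 without morula 1 or morula 2, and to 5 without the 2-cell or the 8-cell array; without the latter 1 member was lower. Factors that assemble ribosomes in the nucleolus gave 6 higher and 1 lower of 52 (11.5% and 1.92%), a share of rises below that of all genes, with a median of 0.59. EMG1, which modifies ribosomal RNA, rose by 3.88, and NMD3, which exports the large subunit, fell by 3.45, from 6233, 8533 and 4514 to 879, 617 and 311. The 6 rises became 3 without morula 1 and 2 without morula 2, and the single fall became 2 without the 2-cell array and 3 without the 8-cell array.

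Splicing factors rose in 17 of 64 cases (26.6%, against 15.8% of all genes) with none lower. Their median was 0.73, and 0.67 for morula 3 alone. SRSF6, a regulator of splice sites, read 18.6 and 14.4 on the 2- and 4-cell arrays, 561 on the 8-cell array and 4064, 4576 and 2157 on the morulae, a rise of 5.34 (SE 1.25, adjusted p = 0.00991). RBM8A, a part of the complex left on spliced junctions, rose by 4.18 and PRPF8, at the core of the spliceosome, by 3.28. The other probe sets of PRPF8 gave -0.27 and -0.10. Without morula 1, 9 splicing genes passed, without morula 2, 8, and without the 2-cell array, 9. Of 37 proteasome genes, 9 were higher and 2 lower (24.3% and 5.41%, against 15.8% and 8.49% of all genes). Their median was 1.19, and 0.82 for morula 3 alone. PSMB4, a subunit of the catalytic core, went from 40.3, 449.8 and 89.7 to 8890.2, 7107 and 6433, a rise of 5.72 (SE 0.66, adjusted p = 0.000103). PSMA1, of the outer ring of the core, rose by 5.54. The 9 rises became 5 without morula 1, and the 2 falls became 1 without the 2-cell or the 8-cell array and 0 without the 4-cell array. POMP, which assembles the core, fell by 2.01, from 2565, 4918 and 2892 to 1094, 1349 and 356, but not past the test without the 4-cell array (adjusted p = 0.0536). Another POMP probe set gave -0.16. The ubiquitin hydrolases UCHL1, abundant in oocytes, and UCHL3 gave -3.23 and -1.18 without passing (adjusted p = 0.201 and 0.123), although UCHL1 passed without the 8-cell array (0.00961) and UCHL3 without morula 2 (0.0489).

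**Figure D4:**
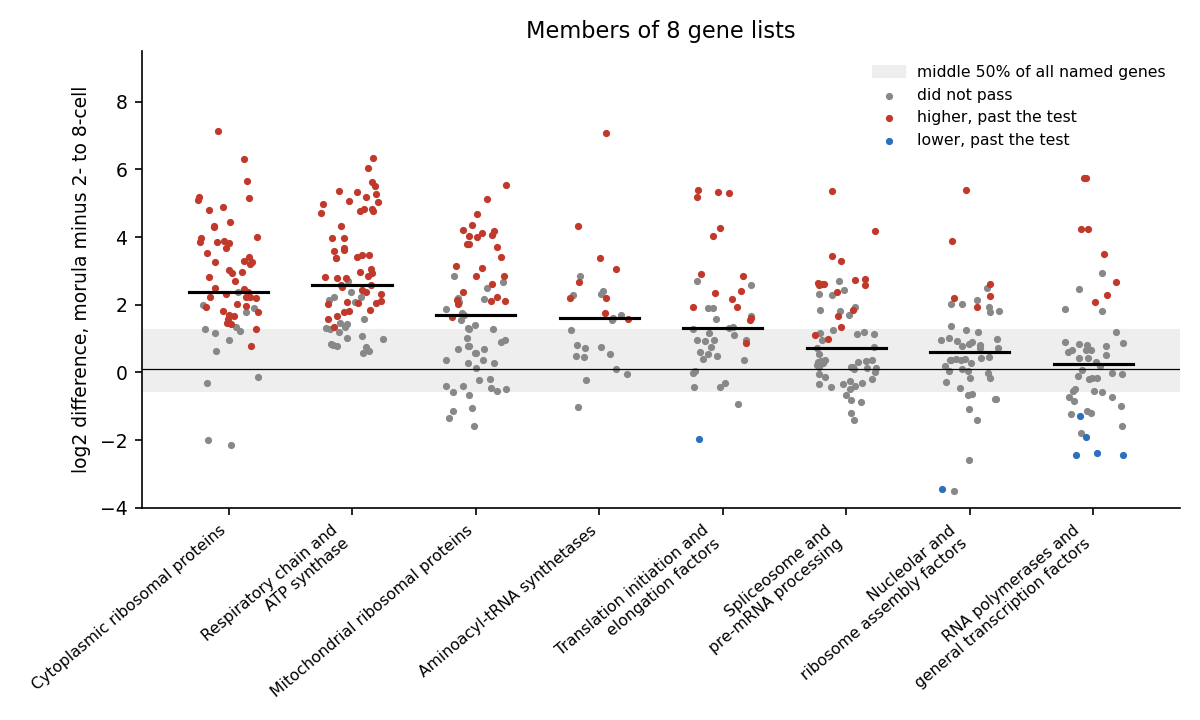
Log2 difference, morula minus 2- to 8-cell, of each measured member of 8 gene lists, red where higher and blue where lower past the test, grey where it did not pass. Black bars are list medians, from 2.57 for the respiratory chain to 0.24 for RNA polymerases, the horizontal line is the median of all genes (0.10), and the shaded band holds the middle 50% of all named genes.

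Of 73 genes of the respiratory chain and ATP synthase, which turn nutrients into ATP, 50 were higher and none lower. Their median difference was 2.57, and it was 2.70, 2.74 and 2.56 for morulae 1, 2 and 3 alone. NDUFV1, which takes electrons into complex I, read 35.9, 261 and 36.8 in cleavage and 8089, 6954 and 7133 in morulae, a rise of 6.34 (SE 0.98, adjusted p = 0.000759). COX4I1, of complex IV, rose by 5.61, from 273, 197 and 86.0 to 12837, 12049.6 and 4731, and NDUFB10, of complex I, by 5.51. NDUFC2 rose by 6.02 with a wide SE of 1.20, since its 2-cell signal was 1449.6 beside 9.16 and 28.1. The groups did not overlap for 68 of the 73 members, all of them higher in morulae, against 24.4% of all named genes. Leaving out any array left 36 to 50 past the test, and morula 3 alone among arrays with spike-in signal left 2.

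Mitochondrial ribosomal proteins, which make the few proteins encoded in mitochondrial DNA, were higher in 26 of 67 cases and lower in none. Their median was 1.70, and it was 1.61, 1.76 and 1.24 for morulae 1, 2 and 3 alone, of which only morula 3 carried spike-in signal. The rises made up 38.8% of the list, against 15.8% of all genes. Leaving out any array left 18 to 26 past the test. MRPL48 went from 28.9, 415 and 17.0 to 4482, 4161 and 3438, a rise of 5.54 (SE 0.93, adjusted p = 0.00134). MRPL12, which also binds the mitochondrial RNA polymerase, rose by 5.11 and MRPS15 by 4.35. The list was less uniform than that of the respiratory chain, since 6 of its 67 members lay lower in morulae on every array without passing the test. This was still a smaller share than the 16.4% of all named genes that lay lower without overlap.

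Genes of glucose use were higher in 16 of 43 cases (37.2%, against 15.8% of all genes) and lower in none. Their median was 1.01, and 0.66 for morula 3 alone. The step from pyruvate into the citrate cycle stood among the largest: PDHA1, the catalytic subunit of pyruvate dehydrogenase, went from 76.9, 109 and 169 to 4859.6, 4300.1 and 2682, a rise of 4.90 (SE 0.43, adjusted p = 1.38e-05). PDHB, its partner subunit, rose by 5.21 but had another probe set that fell by 0.97. The other PDHA1 probe sets gave -2.12, -0.33 and -0.20 and did not pass. IDH3A, a citrate cycle dehydrogenase, rose by 5.75 (another probe set 0.53), PGK1, of glycolysis, by 4.30 and LDHB, which converts lactate to pyruvate, by 4.15. Of the glucose and fructose carriers, SLC2A1 rose by 2.62, from 112, 146 and 200 to 1489, 852 and 772, and SLC2A5 by 4.60, with other SLC2A5 probe sets at 1.53 and -0.20 that did not pass. Without morula 1, 1 member of the list was lower.

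GAPDH, often used as a reference, did not pass. It read 869, 378 and 275 in cleavage and 7124, 3894 and 658 in morulae, with morula 3 inside the cleavage range and an adjusted p of 0.0687, which was 0.00989 without morula 3. The 3' control probe set of GAPDH, not among those tested, did not overlap. That control read 3857, 4434 and 5079 in cleavage and 11447, 10950 and 6708 in morulae. ACTB, the other usual reference, read 5311, 6894 and 8648 against 11893, 11958 and 7992, a difference of 0.61 (adjusted p = 0.24).

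Of 35 redox genes, 9 were higher and 6 lower (25.7% and 17.1%, against 15.8% and 8.49% of all genes), with a median of 0.49. The 9 rises became 0 among arrays with spike-in signal. The thioredoxins, small proteins that reduce disulphides, were on the rising side: TXN went from 49.0, 412 and 191 to 7117, 6032 and 4486, a rise of 5.01 (SE 0.71, adjusted p = 0.000411), and the mitochondrial TXN2 rose by 5.17. GPX1, a peroxidase that uses glutathione, rose by 5.09, while another of its probe sets gave -0.64. Falling genes included enzymes that make or attach glutathione. GSS, which completes glutathione, went from 211, 167 and 211 to 20.1, 17.4 and 18.5, a fall of 2.61 (SE 0.28, adjusted p = 6.3e-05). The transferases GSTM3 and MGST2 gave -3.92 and -4.85. Of the 6 falls, 3 passed without morula 3 and 3 without the 4-cell array.

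Among lipid genes, 4 of 27 were higher and 3 lower (14.8% and 11.1%, near the 15.8% and 8.49% of all genes), with a median of 0.23. ELOVL6 and FADS2, which lengthen and desaturate fatty acids, rose by 6.00 and 4.87, and DHCR7, the last enzyme of cholesterol synthesis, by 5.59. ELOVL6 read 14.2, 8.60 and 78.6 in cleavage and 2645, 2509.7 and 2727 in morulae. INSIG1, which restrains sterol synthesis, went from 2204, 1908 and 1501 to 94.3, 37.3 and 28.1, a difference of -4.87 (SE 1.00, adjusted p = 0.00481). HMGCS1, an early enzyme of the pathway, fell by 1.72, with another probe set at 0.59 that did not pass.

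Genes of cell junctions, polarity and fluid transport were higher in 15 of 41 cases and lower in 2. The shares were 36.6% and 4.88%, against 15.8% and 8.49% of all genes, and the median was 1.00 (0.71 for morula 3 alone). CLDN6, a claudin of the tight junction seal, read 109, 159 and 86.6 in cleavage and 13219.9, 11876 and 3392 in morulae, a rise of 5.95 (SE 0.49, adjusted p = 1.01e-05), with another probe set at 0.41. CLDN4, another claudin, went from 19.1, 8.59 and 47.1 to 2879, 1303 and 1719, a rise of 5.63. CLDN7 gave 2.65 but lost its call when any of these arrays other than morula 3 was left out (adjusted p 0.0591 to 0.193), and also after quantile normalization (0.066) or median centring (0.0592). The tight junction proteins CGN and F11R rose by 3.55 and 3.51, and F11R rose by 4.37 at another probe set. GJB5, a connexin of the trophectoderm, rose by 5.04, from 94.1, 410.3 and 176 to 6645, 6979.6 and 6869, in contrast to the fall of GJC1 given above. AQP3, a water channel, rose by 4.49.

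Beta subunits of the sodium pump, which drives fluid into the blastocyst, moved in opposite directions. ATP1B3 read 49.4, 198 and 868 in cleavage and 10313, 7899.5 and 3805 in morulae and rose by 4.87 (SE 0.79, adjusted p = 0.00102), with another probe set at 0.47. ATP1B1, its other beta subunit here, read 9621, 6090.4 and 10052 in cleavage and 2389, 1021 and 1186 in morulae and fell by 2.54 (SE 0.41, adjusted p = 0.000932). Neither pair of groups overlapped. The other fall of the list, PALS1 of the polarity complex, had another probe set at -2.29 that did not pass, and itself did not pass without morula 2 (adjusted p = 0.0511), morula 3 (0.1), the 2-cell array (0.0993) or the 4-cell array (0.0708). CDH1, the adhesion protein of compaction, did not pass: its signals fell from 1148 through 342 to 77.6 over the cleavage arrays and were 2849, 1274 and 303 in morulae, with a difference of 1.64 (SE 1.14, adjusted p = 0.366).

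Of 9 measured Hippo pathway genes, which read cell contact and position, 4 were higher (44.4%, against 15.8% of all genes) and none lower. Their median was 0.44. TEAD4, the DNA-binding partner of YAP that is needed for trophectoderm, read 78.8, 59.9 and 17.6 in cleavage and 1169.6, 1537 and 2904 in morulae, a rise of 4.81 (SE 0.60, adjusted p = 0.000164). CCN1 and CCN2, known targets of YAP and TEAD, rose by 4.20 and 4.28. The kinase LATS1, which inhibits YAP, rose by 1.41, from 2.90, 1.94 and 1.00 to 40.6, 29.9 and 25.9, all low signals. A member of the list was lower past the test without morula 3 or without the 2-cell array, and 2 were after quantile normalization or median centring.

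Of 21 trophectoderm genes, 6 were higher and 1 lower (28.6% and 4.76%, against 15.8% and 8.49% of all genes), with a median of 0.36. KRT18, a keratin of simple epithelia, read 7.18, 7.40 and 6.02 in cleavage and 5008, 2145 and 1565 in morulae, a rise of 6.82 (SE 0.50, adjusted p = 4.3e-06). Its usual partner KRT8 did not pass, at 52.9, 38.0 and 40.9 against 142, 46.4 and 22.8. KLF5 rose by 5.98 (another probe set 2.48, not past the test), S100A14 by 6.05 and the amino acid transporter SLC7A5 by 5.61. The fall was of ELF5, which gave -1.11 from low and overlapping signals and lost its call when any single morula, the 2-cell array or the 4-cell array was left out (adjusted p 0.0569 to 0.143).

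Of 6 measured genes of pluripotency and the inner cell mass, only the cytokine receptor IL6R passed, with a rise of 3.67 (another probe set 0.56). This was 16.7% of the list, near the 15.8% of all genes that were higher. POU5F1 was already high in cleavage, at 3384, 5043 and 6687, and read 8357, 8757 and 8199 in morulae. The groups did not overlap, but the difference of 0.80 (SE 0.35) did not pass (adjusted p = 0.139). SOX2 gave 2.21 (adjusted p = 0.13), with cleavage signals of 1.00, 139 and 114. KLF4 climbed over the cleavage arrays, at 992, 2209 and 8551, and its 8-cell signal lay within the morula range of 6179.8 to 11741 (difference 1.68, adjusted p = 0.103). Without the 8-cell array KLF4 passed (0.00676), which made 2 of the 6.

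Genes of the hypoblast, the layer that lines the later blastocyst cavity, and of extracellular matrix were higher in 9 of 22 cases and lower in 1. These were 40.9% and 4.55%, against 15.8% and 8.49% of all genes. The median was 1.18, and 0.79 for morula 3 alone. GATA6, a factor that leads cells towards hypoblast, read 9.85, 14 and 394 in cleavage and 10886, 9738 and 8895 in morulae, a rise of 7.17 (SE 0.92, adjusted p = 0.000211). PDGFRA, a growth factor receptor of the same lineage, went from 6.91, 8.64 and 302 to 1499, 1444 and 996, a rise of 4.54 (SE 1.02, adjusted p = 0.00795), and its other probe sets gave 0.28 and -0.12. Both showed the 8-cell signal above the 2- and 4-cell signals. The Wnt enhancer RSPO3 rose by 4.93, the basement membrane collagen COL4A1 by 4.53 (another probe set 1.75, not past the test) and the matrix protein SPARC by 3.69. The fall was of the laminin chain LAMC1 at -1.76. Of its other probe sets 1 passed, at -2.97, and the rest ran from -1.15 to 0.02. The call was lost without morula 3 (adjusted p = 0.067), the 4-cell array (0.0786) or the 8-cell array (0.0506).

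Chaperones were higher in 7 of 44 cases and lower in 2, close to the shares of all genes, with a median of 0.38. CCT6A, a subunit of the ring that folds actin and tubulin, read 13.2, 9.26 and 6.99 in cleavage and 4356, 4065 and 1729 in morulae and rose by 6.94 (SE 0.47, adjusted p = 2.79e-06). HSPB1, a small heat shock protein, rose by 3.58 (another probe set 0.73, not past the test). The count of falls was 0 without morula 2 or the 8-cell array and 1 without morula 1, the 2-cell or the 4-cell array. HSP90B1 (-1.13) and DNAJB11 (-1.81), which fell past the test, both missed it without the 4-cell array (adjusted p = 0.0829 and 0.075). HSPA8, the constitutive HSP70, read 4913, 4132 and 3778 against 12965, 11652 and 9559.8, a rise of 1.41 (SE 0.28, adjusted p = 0.0036), while its testis and oocyte relative HSPA2 gave -0.89 with overlapping groups (adjusted p = 0.348). The inducible HSPA1A gave -2.37 and did not pass (adjusted p = 0.149). Its other probe sets ran from -2.23, which passed, to 1.01.

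Nuclear transport gave 5 higher and 3 lower of 49 (10.2% and 6.12%, below the 15.8% and 8.49% of all genes), with a median of 0.15. Beside the fall of KPNA7, IPO8, an importin, rose by 4.93, XPOT, which exports transfer RNA, by 4.27 and CSE1L, which returns importin alpha to the cytoplasm, by 3.86. Other probe sets of IPO8 and XPOT gave -0.54 and -0.02 and did not pass. Another CSE1L probe set rose by 3.66 past the test, while a further probe set gave 0.51 and did not pass. The 3 falls became 1 without morula 2 or the 4-cell array, and 6 and 7 after quantile normalization and median centring. Apoptosis genes gave 4 higher and 3 lower of 23, with a median of -0.29. The rises were 17.4% of the list, against 15.8% of all genes, and the 3 falls stand against 8.49% of all genes. BAK1, which opens the outer mitochondrial membrane, went from 6.28, 3.19 and 2.06 to 1911, 1895 and 1335, a rise of 6.43 (SE 0.71, adjusted p = 7.27e-05), and BAD, which blocks survival proteins, rose by 3.06. SESN1, a target of p53, gave -4.20, from 196, 347 and 801 to 1.00, 4.96 and 12.2, and its other probe sets gave -0.22 and 0.09.

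Over all probe sets, Pearson's r of log2 signals with the 3 morulae was 0.6667 to 0.7145 for the 4-cell array, 0.6563 to 0.6878 for the 8-cell array and 0.6273 to 0.6734 for the 2-cell array. The 4-cell array differed by at least 4-fold from morulae 1 to 3 at 5232, 5263 and 5374 probe sets, and the 8-cell array at 5489, 5395 and 5201. Among the 2806 probe sets higher in morulae, the 8-cell array was at least 4-fold nearer to the morula mean than both others at 129. The count was 111 for the 4-cell and 68 for the 2-cell array. Among the 1778 lower ones these counts were 91, 20 and 36. Over all tested probe sets, the 8-cell array lay at least 4-fold above both others at 680 and below both at 949. For the 4-cell stage these numbers were 688 and 143, and for the 2-cell stage 654 and 474. With 1 array per stage, a difference between stages and a difference between arrays cannot be told apart.

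By the same measure the genes whose 8-cell signal stood furthest towards the morulae were picked from their values, so these signals are a description. EIF3A, the largest EIF3 subunit, read 13.8 and 9.79 at the 2- and 4-cell stages, 1539.8 at the 8-cell stage and 4617, 3965 and 4819 in morulae. Its difference over the pooled stages was 5.40 (SE 1.25, adjusted p = 0.00935), and another EIF3A probe set gave -0.01. The other probe sets of URGCP, SFPQ and IER2 also lay between -0.27 and 0.21. URGCP went from 12.1 and 9.24 to 997 and then 4557, 4055 and 1044. The splicing helicase DHX15, the RNA-binding protein SFPQ, the immediate-early gene IER2 and the small nucleolar RNA host SNHG3 had the same order, with 8-cell signals of 2318, 1134, 3101 and 1192. Each of these 4 lost its call when the 2-cell array, the 4-cell array or morula 2 was left out, DHX15 and SNHG3 also without morula 1, SFPQ without morula 3 and IER2 without either, with adjusted p between 0.0514 (SNHG3 without morula 2) and 0.111 (DHX15 without the 4-cell array). In the falling direction LRRC8C, a subunit of the volume-regulated anion channel, read 3495, 2368 and 183 in cleavage and 42.0, 36.6 and 28.2 in morulae. SLC39A12, a zinc transporter, read 1639.6, 1175 and 114 and then 7.94, 12.2 and 41.0. Both had an 8-cell signal between the earlier stages and the morulae, and they fell by 4.53 and 4.23.

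Some transcripts were higher in cleavage than in both oocytes and morulae when the 3 oocyte arrays were set beside the 6. They too were chosen for this pattern and are described without a test of it. CCDC92 read 86.9, 154 and 42.4 in oocytes, 1981, 1697 and 2869 in cleavage and 4.06, 2.94 and 4.03 in morulae, where it fell by 6.77 (SE 0.43, adjusted p = 2.55e-06). NHLRC2 read 22.3, 25.9 and 21.3, then 1233, 1291 and 3305, then 9.59, 8.46 and 34.9, a difference of -5.79, and its other probe sets gave -4.16 and 0.19. Both genes were far lower in oocytes and morulae than on the cleavage arrays. On the neighbouring stages they were not low throughout: the 1-cell arrays read 582 and 373 for CCDC92 and 64.8 and 959 for NHLRC2, and the 16-cell array 1317 and 1341. HOXA4, a homeobox gene, ZNF24, a zinc finger gene, and AADAT, an enzyme of tryptophan breakdown, were also higher than in oocytes and morulae and fell by 3.93, 3.58 and 3.61. Their 16-cell signals were 346, 1019.5 and 1255, and the 1-cell arrays read 69.5 and 211 for HOXA4, 26.4 and 727 for ZNF24 and 953 and 738 for AADAT.

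The opposite shape, low in cleavage between oocyte and morula, was shown by SSR4 and TBC1D4 among the largest rises, whose 16-cell signals were 5039 and 2209. SSR4 read 1137, 1679 and 2087 in oocytes, against its cleavage signals of 43.7 to 55.5. TMEM135 read 548, 529 and 1172 in oocytes, 10.6, 16.4 and 12.6 in cleavage and 453, 368 and 499 in morulae, where it rose by 3.96 (SE 0.52, adjusted p = 0.000231). TMEM168 read 575, 682 and 571, then 3.97, 4.97 and 17.4, then 225, 172 and 187. The corepressor CTBP1 read 5466, 4600.5 and 4395, then 116, 123 and 309.9, then 4591, 3863 and 1445. Its rise of 4.03 stood against another CTBP1 probe set that fell by 1.97 past the test.

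**Figure D5:**
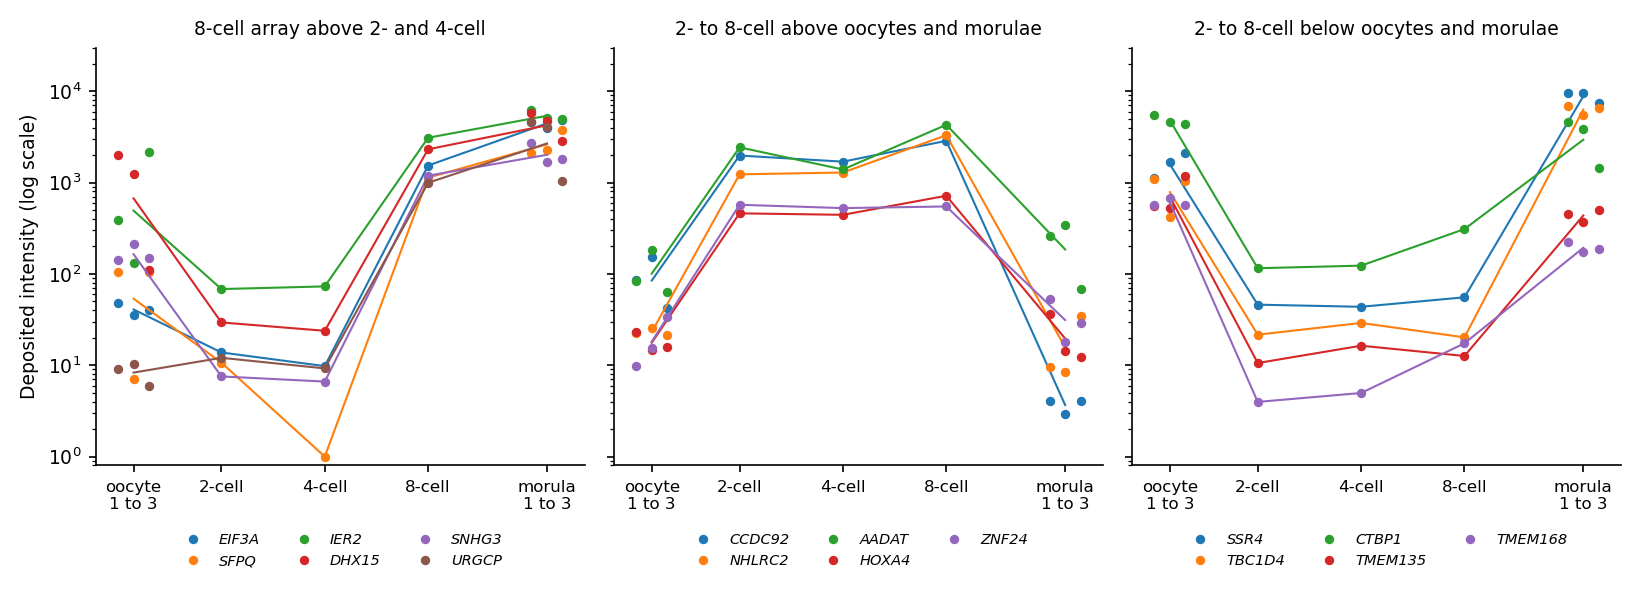
Deposited intensity (log axis) of genes picked by their pattern, in oocytes 1 to 3, on the single 2-, 4- and 8-cell arrays and in morulae 1 to 3; points are arrays and lines join the single arrays to the means on the log2(intensity + 16) scale of the oocyte and morula arrays. Left, genes whose 8-cell signal lies above the 2- and 4-cell signals; middle, genes higher on the 3 cleavage arrays than on the others shown; right, genes lower on them.

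Markers of cells that could accompany embryos were compared in the same way. Of 27 genes of cumulus and granulosa cells, 1 was higher and 3 lower (3.7% and 11.1%, against 15.8% and 8.49% of all genes), with a median of 0.04. Their summed signal was 7674 to 14497 on the cleavage arrays and 15550 to 19638 on the morula arrays. Much of each morula sum was the signal of HAS2, given below. COL1A1 read at most 5.17 in cleavage and 18.9 in morulae, VIM at most 27.9 and 56.3, and the gonadotropin receptor FSHR at most 10.4 and 6.97. DCN and LUM, matrix proteins of stromal cells, were low on 5 arrays and read 1324 and 256 on morula 3. The rise was of HAS2, which makes hyaluronan: it read 28.2, 2179 and 2003 in cleavage and 8972, 8622 and 9257 in morulae, but 1 of its other probe sets fell by 7.0 while the other rose by 3.78, and the call was lost when any single morula was left out (adjusted p 0.0597 to 0.0725). Without the 4-cell array 2 genes of this list were higher, and without morula 1 or morula 2 only 1 was lower. STAR, which brings cholesterol to steroid-making enzymes, went from 1401, 3060.3 and 4472 to 78.0, 95.0 and 907, a difference of -3.66.

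Of 10 sperm and spermatid genes, 1 was higher (10%, against 15.8% of all genes). Their summed signal was 233 to 442 in cleavage and 907 to 1254 in morulae, and most of each morula sum was the signal of ODF2. The higher gene was ODF2, of sperm tail fibres and of centrosomes in other cells, at 56.6, 267 and 38.2 against 847, 1058 and 681. The protamine PRM1 read at most 15.8 in cleavage and 26.7 in morulae. Without the 4-cell array 1 sperm gene was lower. Of 14 blood and immune genes, 1 was higher (7.14%, against 15.8% of all genes), and 2 were without morula 3 or without the 8-cell array. HBB, a globin chain, read 21.5, 23.6 and 24.9 in cleavage and 1382, 1437 and 232 in morulae, a rise of 4.34 (SE 0.75, adjusted p = 0.00152), and rose by 2.68 and 2.11 at 2 other probe sets, while a further probe set gave -0.54. HBA, the partner chain, read at most 21.7 in cleavage and 5.57 in morulae, and PTPRC, of white blood cells, at most 30.2 and 26.2. The part of other cells in the results was not tested.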

How the data were processed

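The deposited values are 1 intensity per probe set and array on a linear scale, from 0.39 to 20788 with 2.56% equal to 1.00, and how the authors summarised and scaled them is not given in the sources used here. Of 24128 probe sets, 112 controls were left out and 24016 tested. GEO's platform annotation gives 13292 of these a single gene symbol, 86 several and 10638 none; 13263 symbols are in the RefSeq table for ARS-UCD2.0. KDM4E and ZSCAN4 are named by no probe set.

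Values were taken as log2(intensity + 16). limma 3.58.1 in R 4.3.3 was fitted with an empirical Bayes variance trend to all 15 arrays, with 1 mean per group (oocyte, 1-cell, pooled 2- to 8-cell, 16-cell, morula, blastocyst), and p-values were adjusted by Benjamini and Hochberg's method over all tested probe sets, with a threshold of 0.05. All adjusted p here are from this fit unless an array is said to be left out. Genes were counted at the probe set with the highest mean log2 value over the 15 arrays. Of 1356 genes in 30 lists, 1009 were measured. Members and lists were chosen with earlier results of these data known.

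The 171 genes named by rule were the 12 largest rises and falls without overlap between groups, up to 4 members of each list, preset pairs of related genes, genes whose 8-cell or oocyte signals stood apart in the ways described, and a preset group of embryo genes. Further members of the lists and other genes given with values were chosen after their values were seen. Alternatives changed the scaling, filter, pseudocount, variance model, arrays fitted, array weights and spike-in class, took the mean of a gene's probe sets, and left out each of the 6 arrays in turn. On simulated data with the same 24016 probe sets, the fit recovered 10%, 38%, 60% and 76% of 50 changes each of 1, 2, 3 and 4 on the log2 scale, with 4 false calls. The simulation changed a far smaller share of probe sets than the 19.1% called in the data. Its noise was independent between arrays, without spike-in class or stage differences in cleavage, so these rates may not hold for the data. Figures and counts used Python 3.11.15 with matplotlib 3.10.9. A result among the largest rises is not reported here.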

Additional observations from a re-analysis of the deposited data

How the results depend on the processing

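Main counts were 2806 probe sets higher and 1778 lower in morulae, and 1442 and 777 genes. Fitted alone, the 6 arrays gave 1179 lower probe sets. Estimated array weights gave 4261 higher and 2812 lower. Spike-in class fitted as a block gave 2228 higher and 1536 lower, and 18 of the 156 named genes past the test no longer passed. Arrays with spike-in signal only, which leave morula 3 as the lone morula assumed to vary like the other groups, gave 823 and 432 probe sets and 298 and 240 genes. In comparisons added after seeing the data, the 4-cell array alone gave 1585 higher probe sets and 862 higher genes, and the 8-cell array alone 468 lower genes. Leaving out 1 array in turn gave 2005 to 3033 higher and 1220 to 1903 lower probe sets; for genes past the test, higher in morulae, it gave 1031 to 1488, and for those lower 549 to 822. The other settings stayed within 1.5 times the main counts, and no setting called a probe set in the opposite direction. Of the 156 named genes past the test, 55 passed in all 18 alternatives and none changed sign; 99 were lost with spike-in arrays only and 28 with the 6 arrays alone. The differences that changed sign had not passed. CDH1 was -0.09 with spike-in arrays only. KRT8 was -0.06 after quantile normalization, -0.15 with spike-in class as a block, -0.62 with spike-in arrays only, and -0.28 to 0.74 when a morula was left out. The cause of these changes was not tested. No paired analysis was possible because the cleavage arrays carry no replicate numbers. With 3 arrays a group, changes of 2 on the log2 scale were often missed on simulated data, whose setting differed from the data as given above. Low signals, with the pseudocount of 16, understate folds.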

Other observations

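The series has a single array of 16-cell embryos, the stage between the compared groups, so its values have no replicate check. The summed signal of cytoplasmic ribosomal protein genes was 474320 on that array, against 107752 to 125730 on the cleavage arrays and 483347 to 563836 on the morula arrays. That of the respiratory chain and ATP synthase was 238416, against 59529 to 96852 and 305337 to 414985. Junction, polarity and transport genes summed to 61213, against 47322 to 51082 and 65235 to 126759. Zona and oocyte growth factor genes summed to 9732, against 33212 to 37983 in cleavage and 2802 to 6027 in morulae. All 4 sums of the 16-cell array lay between those of the compared groups, which was not so for every list. RNA polymerases and general factors summed to 153355, against 91983 to 97073 in cleavage and 90335 to 121006 in morulae. Nucleolar and ribosome assembly factors summed to 136074, against 66051 to 80331 and 94349 to 111503. A few bright genes carry much of each sum.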
